A study of Mus musculus with 18 samples.

Results

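The 7 genes described here are the nitric oxide (NO) synthases *Nos1*, *Nos2* and *Nos3*, the arginases *Arg1* and *Arg2*, and *Ass1* and *Asl*, which make arginine from citrulline. They are 7 of the 78239 genes counted in 2 experiments on a normoxia-stable form of mouse HIF1A (nsHIF1A), the oxygen-regulated subunit of the transcription factor HIF1. *Nos2* was chosen by its counts in the transfected cells against those in the retina, so its values are given as a description without a test. The other 6 genes were listed for their function, with earlier results of these data known, and were tested in fits over all genes. In the cell experiment, 661W cells, a photoreceptor-like line derived from a mouse retinal tumour, were transfected for 20 h with a plasmid expressing Myc-tagged *nsHif1a* or eGFP from the CMV promoter, and 4 libraries were made per group. In the retina experiment, mice received AAV::*nsHif1a* or AAV::eGFP into the subretinal space between postnatal days 29 and 32, and 5 retinas per group were collected at 3 weeks post injection (wpi). There both transgenes were driven by the mouse opsin promoter, which is active in rods, and the virus reached only part of the retina, whereas the RNA came from the whole tissue. The labels give the strain as C57BL/6J, while the methods of the study name 129S6. The controls of both experiments carried eGFP, so the comparison is between transgenes and not with untreated cells or retinas.

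NO synthases (NOS) convert arginine into NO and citrulline with tetrahydrobiopterin (BH4) as a cofactor. *Nos1* encodes the neuronal form, which in the retina is known mainly from amacrine cells, *Nos3* encodes the endothelial form, and *Nos2* encodes the inducible form, which is controlled mainly at the level of its RNA by cytokine signals and is a known HIF1 target. Arginases compete for the same substrate and split arginine into ornithine and urea. Argininosuccinate synthase (*Ass1*) and argininosuccinate lyase (*Asl*) turn the citrulline left by NOS back into arginine.

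The bases upstream of the 3 synthase genes are shown because *Nos2* was the member with the different counts in the cells. Each line gives the 250 bases before the start of the canonical transcript, read from GRCm39 on the plus strand, in lower case. Capitals mark matches, on either strand, to the HIF core motifs ACGTG and GCGTG, to the NF-κB consensus or to the interferon-response core GAAANNGAA.
Nos1 (chr5:117979585-117979834, plus strand): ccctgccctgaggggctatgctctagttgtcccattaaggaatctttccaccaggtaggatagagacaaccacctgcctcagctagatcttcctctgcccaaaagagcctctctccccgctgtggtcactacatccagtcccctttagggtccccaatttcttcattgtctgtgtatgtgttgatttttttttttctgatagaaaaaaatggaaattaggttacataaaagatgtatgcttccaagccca
Nos2 (chr11:78811363-78811612, plus strand): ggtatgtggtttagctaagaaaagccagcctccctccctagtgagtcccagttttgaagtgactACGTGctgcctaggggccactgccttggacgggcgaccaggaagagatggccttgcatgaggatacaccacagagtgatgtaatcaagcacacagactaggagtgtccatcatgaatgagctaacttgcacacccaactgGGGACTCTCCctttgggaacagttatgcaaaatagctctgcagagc
Nos3 (chr5:24569537-24569786, plus strand): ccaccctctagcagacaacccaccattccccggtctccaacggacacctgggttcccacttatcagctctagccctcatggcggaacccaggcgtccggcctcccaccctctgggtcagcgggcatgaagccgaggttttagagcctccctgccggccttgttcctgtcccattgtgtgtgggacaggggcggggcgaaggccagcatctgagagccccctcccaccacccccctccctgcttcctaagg

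The *Nos2* window held 1 match to ACGTG, from 186 to 182 bases before the start, and 1 match to the NF-κB consensus, from 46 to 37 bases before it. The windows of *Nos1* and *Nos3* held no match to any of the 4 motifs. Among 21723 promoters of protein-coding genes of the same length, 17% held ACGTG, 31.2% GCGTG, 7.60% the NF-κB consensus and 7.54% the interferon-response core. Of the other members, *Arg2* and *Ass1* each held 2 matches to GCGTG, and *Arg1* and *Asl* held no match. *Nos1*, *Arg1*, *Ass1* and *Asl* extend upstream beyond their windows, so these windows do not cover every start site of those genes. A match is a string of letters and not a shown binding site.

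The labels were checked with *Hif1a* itself, because the transgene is a mouse *Hif1a* sequence. In the cells its counts rose from between 2183 and 2735 with eGFP to between 17668 and 33418 with *nsHif1a* (log2FC 3.26, limma adjusted p = 1.2e-05). In the retina, *Hif1a* had 8713 to 11286 counts with eGFP and 8565 to 10909 with *nsHif1a*, so this gene does not tell the retina groups apart. Depth ranged from 12898220 to 17809585 counts per library, at which 3 counts correspond to 0.168 to 0.233 CPM (counts on a common depth scale). The cell libraries formed pairs. Libraries 1 and 2, and libraries 3 and 4, of either group differed by 1.5 to 1.62 times the sampling variance, against 3.70 to 9.16 times for the other pairs. All 5 *nsHif1a* retinas and eGFP retinas 1 and 2 held the X inactivation transcript *Xist*, and eGFP retinas 3, 4 and 5 did not, so that sex and transgene were not balanced. Summed rod markers were at 1.5 to 4.02 CPM in the cells and at 32327 to 46065 CPM in the retinas, and summed cone markers at 0.976 to 1.65 and 699 to 906 CPM. Every cell library still held counts of *Sag* (15 to 37) and *Gnat2* (11 to 25), so the defining RNAs of both photoreceptor types were at very low levels in the 661W libraries.

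*Nos2* RNA was nearly absent from control cells and present in every *nsHif1a* cell library. The gene (ENSMUSG00000020826.10) lies at chr11:78811613-78851080 on the plus strand of GRCm39. The eGFP libraries held 1, 3, 2 and 2 *Nos2* counts and the *nsHif1a* libraries 173, 135, 159 and 105. The groups did not overlap, and the lowest *nsHif1a* library, number 4, was far above the highest control. In CPM the level was 0.131 ± 0.0566 (SD, n = 4) with eGFP and 8.68 ± 1.65 (SD, n = 4) with *nsHif1a*. The ratio of the summed counts, 572 against 8 and scaled for depth, was 67.6, with a counting interval (95%) of 34.1 to 157. The limma fit gave a log2FC of 5.79 (SE 0.37, 95% limits 4.97 to 6.62). Taken separately, the pairs of libraries gave ratios of 77.2 (29.8 to 285) for libraries 1 and 2 and of 58.9 (22.7 to 218) for libraries 3 and 4. These intervals cover counting error only.

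In the retina *Nos2* stayed at or below 20 counts in every library. The 5 eGFP retinas held 2, 8, 3, 1 and 1 counts and the 5 *nsHif1a* retinas 4, 9, 7, 14 and 20. The groups overlapped, with 3 of the 5 *nsHif1a* retinas above every control and eGFP retina 2 inside the range of the other group. The level was 0.199 ± 0.185 CPM (SD, n = 5) with eGFP and 0.720 ± 0.394 CPM (SD, n = 5) with *nsHif1a*. The gene fell below the filter on low counts in the retina fit, so that fit gave no value for it. The ratio of summed counts, 54 against 15, was 3.58 (counting interval 1.99 to 6.83). It was 2.10 (1.06 to 4.62) among the libraries with *Xist*, 6.05 (2.74 to 15.8) without eGFP retina 2 and 2.86 (1.52 to 5.65) without *nsHif1a* retina 5. In the fit over all 18 libraries, the effect in the retina minus the effect in the cells was -3.89 on the log2 scale for *Nos2* (SE 0.61, described without a test). The agents, promoters, times and cell mixtures of the experiments differ together and cannot be told apart.

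**Figure D1:**
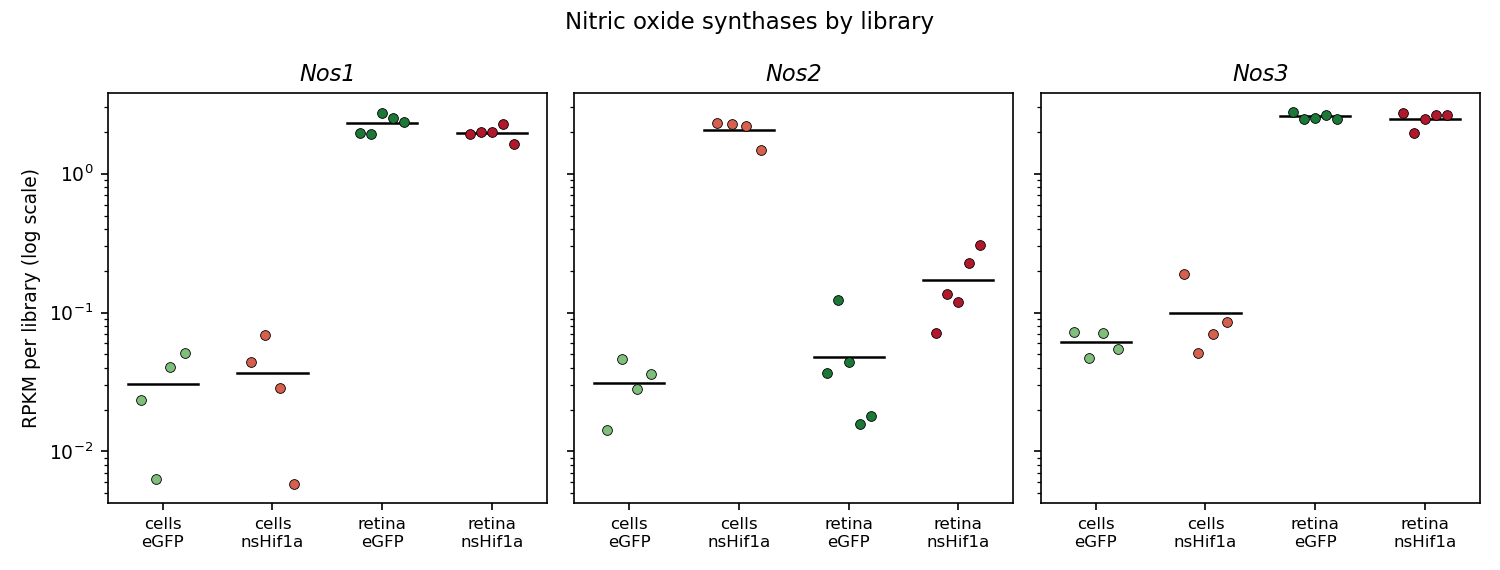
RPKM (log scale) of *Nos1*, *Nos2* and *Nos3* in each library of the 4 groups (points) with the group mean (line). *Nos2* lies between 1.48 and 2.32 RPKM in the 4 *nsHif1a* cell libraries and at 0.306 RPKM or less in all other libraries, whereas *Nos1* and *Nos3* separate retinas from cells.

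The retinal *Nos2* counts varied with markers of microglia and macrophages, which can express this gene when activated. The summed level of 10 such markers was 73.1, 147, 36.4, 27 and 47.9 CPM in eGFP retinas 1 to 5 and 48.7, 89.8, 74.6, 132 and 136 CPM in *nsHif1a* retinas 1 to 5. The control with most *Nos2*, eGFP retina 2, had the highest marker sum of all 10 retinas, and *nsHif1a* retinas 4 and 5, with 14 and 20 *Nos2* counts, had the next highest. Similar sums did not go with similar *Nos2* counts across the groups. Held against 2 counts in eGFP retina 1 (73.1 CPM) were 7 in *nsHif1a* retina 3 (74.6 CPM). Likewise eGFP retina 5 (47.9 CPM) had 1 count and *nsHif1a* retina 1 (48.7 CPM) had 4. None of the 10 markers was called between the retina groups by limma, edgeR or DESeq2, beside 1.99% of all genes by limma. At an unadjusted p under 0.05 there were 3 by limma and 1 by each other tool, with no share over all genes given for that threshold. The part of microglia and macrophages in the *Nos2* counts was not tested. In whole tissue, fewer cells of a type and less RNA per cell cannot be told apart. In the 661W libraries, the macrophage markers *Adgre1* and *C1qa* had 0 counts in all 8 libraries, *Itgam* had 1 count in 1 library, and the marker sum, carried by *Tmem119*, *Cd68* and *Csf1r*, was 28.8 to 34.5 CPM with eGFP and 29.3 to 48.8 CPM with *nsHif1a*.

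**Figure D2:**
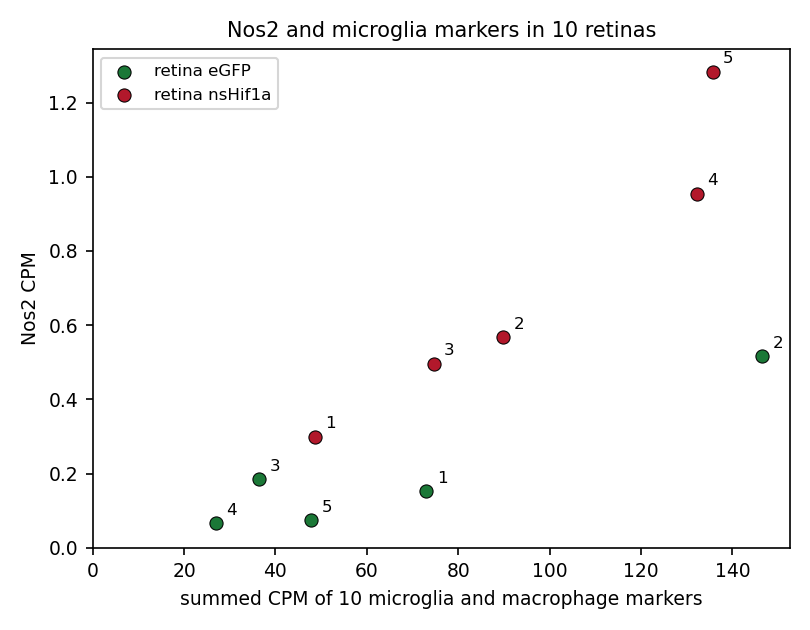
*Nos2* CPM (vertical) against the summed CPM of 10 microglia and macrophage markers (horizontal) in the 10 retinas, numbered by library. The *nsHif1a* retinas run from 0.300 CPM of *Nos2* at a marker sum of 48.7 CPM to 1.28 at 136, and eGFP retina 2 has 0.517 at 147.

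The constitutive synthases were retinal and showed no called change with *nsHif1a*. *Nos1* (chr5:117918971-118096905, plus strand) had 264, 307, 449, 388 and 320 counts in the eGFP retinas and 262, 326, 286, 339 and 262 in the *nsHif1a* retinas. All *nsHif1a* values but 2 lay inside the control range once scaled for depth, at 23.5 ± 3.46 against 20.1 ± 2.26 CPM (SD, n = 5), and the log2FC was -0.21 (SE 0.10, 95% limits -0.43 to 0.0033, limma adjusted p = 0.24). With the *Xist* class as a covariate this value was 0.013, so the direction for *Nos1* rested on the 3 eGFP retinas without *Xist*. *Nos3* (chr5:24569787-24589475, plus strand) had 151, 160, 170, 167 and 136 counts with eGFP and 151, 129, 145, 161 and 172 with *nsHif1a*. Its groups overlapped almost fully, and its log2FC was -0.11 (SE 0.10, 95% limits -0.34 to 0.11, limma adjusted p = 0.56). Summed markers of amacrine cells were at 942 to 1024 CPM with eGFP and 916 to 1008 with *nsHif1a*, and those of endothelial cells at 224 to 287 and 267 to 353 CPM. Most of the endothelial sum came from *Kdr*, at 187 to 237 CPM with eGFP and 222 to 278 with *nsHif1a*, so that sum mainly follows a single gene. No gene of either list was called in the retina by limma, edgeR or DESeq2, beside 1.99% of all 18859 genes by limma. At an unadjusted p under 0.05 there were 0 of 7 amacrine markers by each tool, and 3 of 8 endothelial markers by limma and 4 by each other tool. The share of all genes under that unadjusted p is not given, so these numbers do not show whether either list moved more or less than other genes.

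In the cells the constitutive forms were at the limit of detection. *Nos1* had 4, 1, 7 and 7 counts with eGFP and 8, 10, 5 and 1 with *nsHif1a*, and *Nos3* had 5, 3, 5 and 3 against 14, 3, 5 and 6. Both ranges overlapped, and the ratios of summed counts were 1.19 (counting interval 0.627 to 2.31) for *Nos1* and 1.66 (0.865 to 3.27) for *Nos3*. A change of the size seen for *Nos2* lies outside both intervals.

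Per length of the canonical transcript, the composition of the NOS RNAs differed between the systems. RPKM values (CPM divided by the transcript length in kilobases) summed over the 3 synthases were at 0.0996 to 0.142 in control cells and 1.58 to 2.56 in *nsHif1a* cells, against 4.56 to 5.30 in control retinas and 4.10 to 5.14 in *nsHif1a* retinas. *Nos2* made up 13.0 to 46.6% of the sum in control cells, where each share rests on 1 to 3 *Nos2* counts, and 90.9 to 95.7% in *nsHif1a* cells. In the retina its share was 0.304 to 2.71% with eGFP and 1.51 to 6.64% with *nsHif1a*. The *nsHif1a* cells thus carried mainly the inducible form and the retinas mainly *Nos1* and *Nos3*.

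Of the arginases, *Arg2*, the mitochondrial form, was the main one in the retina, and neither was at a usable level in the cells. *Arg2* (chr12:79177524-79203075, plus strand) had 147, 203, 201, 219 and 147 counts in eGFP retinas and 194, 189, 202, 211 and 189 in *nsHif1a* retinas. The groups overlapped, at 12.5 ± 1.41 and 13.5 ± 1.32 CPM (SD, n = 5), with a log2FC of 0.10 (SE 0.10, 95% limits -0.11 to 0.32, limma adjusted p = 0.58). In the cells *Arg2* had 3, 1, 1 and 5 counts with eGFP and 2, 1, 2 and 1 with *nsHif1a*, a ratio of 0.567 with a counting interval of 0.169 to 1.72. *Arg1*, the cytosolic form (chr10:24791118-24803817, minus strand), had 2 counts in eGFP library 3 and 0 in the other 7 cell libraries, so no fold is given.

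*Arg1* in the retina was set by a single library. The eGFP retinas held 8, 8, 12, 7 and 16 counts and the *nsHif1a* retinas 4, 16, 21, 214 and 22. Library 4 stood far above the others, and library 1 of the same group was the lowest of all. The log2FC was 1.07 (SE 0.77, 95% limits -0.61 to 2.75, limma adjusted p = 0.46) and was 0.42 without *nsHif1a* retina 4 (adjusted p = 0.62). The ratio of summed counts was 5.4 (counting interval 3.99 to 7.43) with that retina and 1.53 (1.04 to 2.26) without it. In the same retina the summed microglia and macrophage markers were at 132 CPM, below *nsHif1a* retina 5 (136) and eGFP retina 2 (147), which held 22 and 8 *Arg1* counts. Of these markers *Itgam* (81 counts against at most 38) and *P2ry12* (135 against at most 123) were highest in *nsHif1a* retina 4. Each of the other markers was higher in another retina. The cytokine *Tnf* had 25 counts there against at most 7 elsewhere. This retina had an RPE marker sum of 766 CPM against 20.3 to 651, and a lens crystallin sum of 18956 CPM against 634 to 11515. It also held the lowest count of *Ass1*, 255. The part of these in the *Arg1* count was not tested.

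The enzymes that regenerate arginine were expressed in both systems, at higher levels in the cells. *Ass1* (chr2:31352181-31410862, plus strand) had 1362, 1214, 1706 and 1340 counts in eGFP cells and 1197, 970, 1478 and 1595 in *nsHif1a* cells. The groups overlapped at 90.4 ± 11.7 and 79.1 ± 13.5 CPM (SD, n = 4), and the log2FC was -0.21 (SE 0.13, 95% limits -0.50 to 0.078, limma adjusted p = 0.39). Within the pairs of alike libraries, *Ass1* was at 81.8 and 78.7 CPM with eGFP against 67.3 and 68.2 with *nsHif1a* for libraries 1 and 2, and at 100.3 and 100.6 against 86.4 and 94.5 for libraries 3 and 4, without overlap in either. With the pairs as a covariate the log2FC was -0.19 (limma adjusted p = 0.020), and with the replicate number as a block it was -0.19 (adjusted p = 0.098), both short of the fold threshold of 0.5 in absolute log2FC. The pairs were read from these same libraries and not from the labels, and no share of all genes is given for that setting. The difference within the pairs is therefore a description and not a test of *Ass1*. In the retina *Ass1* had 451 to 460 counts in the eGFP libraries and 434, 590, 389, 255 and 425 in the *nsHif1a* libraries. Both the highest and the lowest count came from *nsHif1a* retinas, and the log2FC was -0.13 (SE 0.16, 95% limits -0.47 to 0.20, limma adjusted p = 0.67).

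The *Ass1* level is uncertain, because 19.2% of the 50-base words in its transcripts also occur in the processed pseudogene *Gm5424*. That copy, looked up after its values were seen, held more counts than *Ass1* itself, 1720 to 2861 in the cells and 448 to 874 in the retinas. It made up 61.8 to 65.8% of the counts of both in the cells and 59.4 to 63.7% in the retinas. Added together, the pair was at 248 ± 25.4 CPM in eGFP cells and 223 ± 40.9 in *nsHif1a* cells (SD, n = 4), and at 81.3 ± 8.47 and 73.1 ± 16.4 CPM in the retinas (SD, n = 5). *Gm5424* alone had a log2FC of -0.17 in the cells (limma adjusted p = 0.46) and -0.16 in the retina (adjusted p = 0.52). The other members shared at most 0.20% of their words with other genes, the share of *Nos1*.

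*Asl* (chr5:130040099-130058088, minus strand) had 486, 463, 612 and 394 counts in eGFP cells and 541, 421, 449 and 501 in *nsHif1a* cells. The groups overlapped, with a log2FC of -0.10 (SE 0.088, 95% limits -0.30 to 0.097, limma adjusted p = 0.55). In the retinas it had 198, 245, 250, 283 and 257 counts with eGFP and 274, 259, 274, 278 and 274 with *nsHif1a*. Scaled for depth, the groups overlapped at 16.9 ± 1.97 CPM with eGFP and 18.6 ± 1.65 with *nsHif1a* (SD, n = 5). The log2FC was 0.095 (SE 0.093, 95% limits -0.11 to 0.30, limma adjusted p = 0.60).

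**Figure D3:**
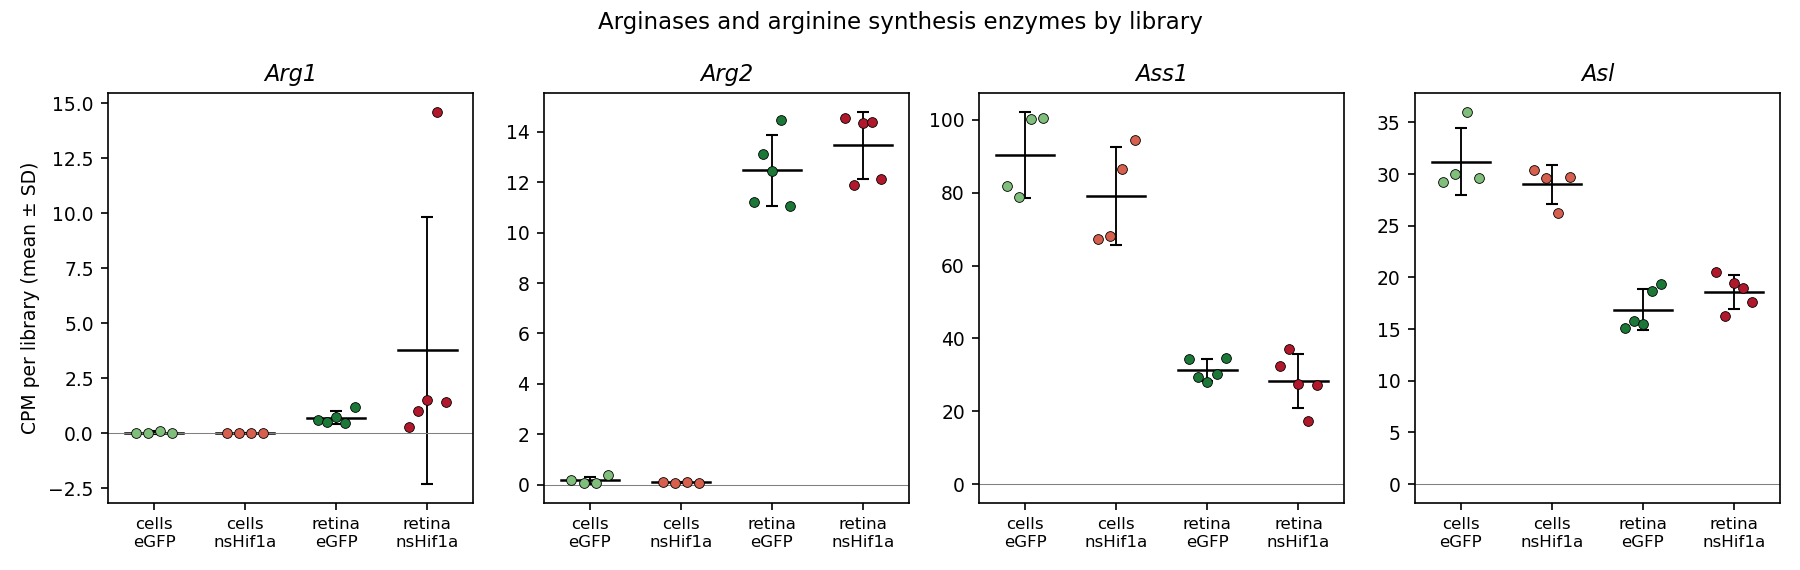
CPM of *Arg1*, *Arg2*, *Ass1* and *Asl* in each library of the 4 groups (points) with mean and SD (line and bar). The 214 counts of *Arg1* in *nsHif1a* retina 4 (14.6 CPM) stand alone, *Arg2* is retinal, and *Ass1* and *Asl* are higher in the cells.

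Counted over the 6 members other than *Nos2*, none was called in either experiment at an adjusted p under 0.05 and an absolute log2FC above 0.5. In the cells 2 of the 6 passed the filter on low counts, and 1.27% of all 15962 genes tested were called. In the retina all 6 passed it, and 1.99% of 18859 genes were called. By edgeR and DESeq2 the number of members called was 0 as well. At an unadjusted p under 0.05 there was no member by limma in either experiment and none by the other tools in the cells, whereas in the retina edgeR gave *Arg1* and DESeq2 gave *Nos1*. No share over all genes is given for that threshold. The difference between the retina and cell effects was not called for *Asl* (limma adjusted p = 0.47) or *Ass1* (adjusted p = 0.99), against 2.33% of 20999 genes. *Nos1*, *Nos3*, *Arg1* and *Arg2* entered that fit over all libraries only through their retinal counts, and their effect in the cells rests on 0 to 14 counts per library, so they are not counted as tested. The 95% limits of the difference ran from -1.67 to 1.27 for *Nos1* and from -1.18 to 4.56 for *Arg1*, and differences of several-fold were not detectable for the members with few counts.

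**Figure D4:**
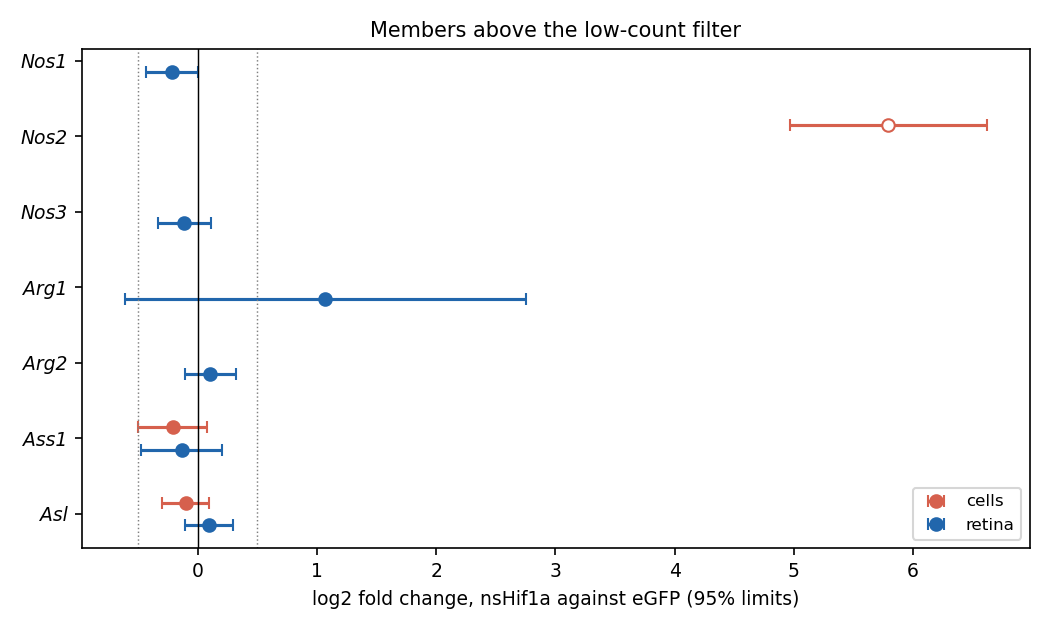
Log2 fold change of *nsHif1a* against eGFP with 95% limits for the members that passed the filter on low counts, in cells (red) and retina (blue). Dotted lines mark the fold threshold of 0.5, and the open circle marks *Nos2*, which was chosen by its values and has no test. *Nos2* in the cells lies at 5.79, and the limits of all other members include 0.

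Between control retinas and control cells, *Nos1*, *Nos3*, *Arg1* and *Arg2* passed the filter on low counts only through the retina, so they had to differ and are described without a test. Their log2 differences, retina minus cells, were 6.53 (SE 0.43) for *Nos1*, 6.38 (SE 0.33) for *Arg2*, 5.36 (SE 0.25) for *Nos3* and 4.06 (SE 0.88) for *Arg1*. *Ass1* (-1.39, SE 0.14, limma adjusted p = 2e-08) and *Asl* (-0.76, SE 0.090, adjusted p = 1.7e-07) were higher in the cells. Of all 20999 genes, 81.3% were called in this contrast, and their median log2 difference was 0.30, so a call alone says little about the members. Tissue, agent and experiment differ together here and cannot be told apart. The ratio of summed counts, retina to cells, was 83.6 (counting interval 53.4 to 139) for *Nos1*, 45.0 (27.6 to 79.2) for *Nos3* and 84.3 (45.6 to 176) for *Arg2*. *Nos2* was low in both control groups, with 15 counts in 5 retinas and 8 in 4 cell libraries, a ratio of 1.72 (0.686 to 4.69).

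Ordered by RPKM, control cells held mainly *Ass1* (51.3) and *Asl* (11.7), and the other 5 members were at 0.117 or less, with ranges that overlapped in part. With *nsHif1a*, *Nos2* (2.07) came next after *Ass1* (44.9) and *Asl* (10.9) and did not overlap its neighbours. In control retinas the order was *Ass1* (17.8), *Arg2* (8.57), *Asl* (6.35), *Nos3* (2.58), *Nos1* (2.30), *Arg1* (0.439) and *Nos2* (0.0475). There the ranges of *Nos3* and *Nos1* overlapped, whereas *Arg2* (7.61 to 9.94) lay above *Asl* (5.69 to 7.28) in every library. In *nsHif1a* retinas the order was the same except for *Arg1*, whose mean of 2.33 RPKM came from library 4. *Ass1* is understated on this scale where reads went to its copy.

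The enzymes around NOS were examined with 64 genes in 6 lists, chosen with earlier results of these data known. In the cells 47 of them were tested, 6 were called higher and 0 lower, which is 12.8% of those tested beside 1.27% of all genes, and the median log2FC of the 47 was 0.020 against -0.0013 over all genes. In arginine transport, 1 of 8 genes tested was called. *Slc3a2*, the heavy chain shared by several amino acid carriers, rose from 216 ± 36.6 to 324 ± 6.39 CPM (SD, n = 4, log2FC 0.59, limma adjusted p = 0.038). With eGFP it was split by library pair, at 186 and 184 CPM in libraries 1 and 2 and 245 and 251 in libraries 3 and 4. *Slc7a1*, a main arginine importer, was at 168 ± 15.9 and 208 ± 5.86 CPM without being called (log2FC 0.31, adjusted p = 0.060). In BH4 supply, 1 of 6 genes tested was called. *Gch1*, the rate-limiting enzyme of BH4 synthesis, had 174, 183, 239 and 214 counts with eGFP and 359, 305, 373 and 333 with *nsHif1a*, without overlap (log2FC 0.68, SE 0.13, limma adjusted p = 0.029). The BH4 genes *Qdpr*, *Spr*, *Pts* and *Gchfr* had log2FC values between -0.20 and 0.12, and *Pcbd1* had 0 counts in all cell libraries.

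In the list of urea cycle, ornithine and creatine genes, 1 of 9 tested was called in the cells. *Aldh18a1*, which makes the proline and ornithine precursor pyrroline-5-carboxylate, rose from 91.2 ± 2.14 to 136 ± 25.2 CPM (SD, n = 4, log2FC 0.57, limma adjusted p = 0.026). Its *nsHif1a* level was split by library pair, at 160 and 156 CPM in libraries 1 and 2 and 115 and 114 in libraries 3 and 4. *Otc* had no count and *Cps1* at most 1 per cell library, so the first steps of the urea cycle were not detectable there. None of 10 tested partners and inhibitors of NOS was called by limma, edgeR or DESeq2, although 7 had an unadjusted p under 0.05 by limma and 5 by each other tool. The share of all genes under that unadjusted p is not given. The most abundant of them in control cells, *Hsp90aa1*, a chaperone of NOS, had a log2FC of -0.19 (adjusted p = 0.44). None of 4 tested NO receptor and cGMP genes was called by any tool, 1 having an unadjusted p under 0.05 by limma and 0 by the others. *Gucy1a1* and *Gucy1b1*, the subunits of the main NO receptor, had 0 to 2 counts per library in the cells against 214 ± 12.5 and 132 ± 5.44 CPM in control retinas (SD, n = 5).

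The last list held *Nos2* inducers and related signalling genes, among them the NF-κB inhibitor *Nfkbia*. In the cells 3 of its 10 tested genes were called higher. *Ifnb1*, which encodes interferon β, had 3, 3, 9 and 8 counts with eGFP and 50, 41, 42 and 88 with *nsHif1a*, without overlap (log2FC 3.16, SE 0.43, limma adjusted p = 0.0076). *Stat2*, which transmits interferon signals, had a log2FC of 0.56 (limma adjusted p = 0.043). Its level followed the library pairs. *Stat2* was at 481 and 484 CPM in *nsHif1a* libraries 1 and 2 and at 328 and 343 in libraries 3 and 4, while *Nos2* was at 9.73, 9.49, 9.30 and 6.22 CPM in the same libraries. The cytokines *Il1b* and *Ifng* had 0 counts in all cell libraries and *Tnf* at most 1. With the replicate number as a block, which treats same-numbered cell libraries as pairs, 3 of the 6 calls were kept, those of *Aldh18a1*, *Ifnb1* and *Slc3a2*. With the library pairs (1 and 2 against 3 and 4) as a covariate, 8 genes were called, all 6 among them. The number called was 1, *Ifnb1*, without eGFP library 1 or without eGFP library 2, it was 3 without *nsHif1a* library 1 or 2, and 11 without *nsHif1a* library 3 or 4. The share of all genes called in these settings is not given.

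**Figure D5:**
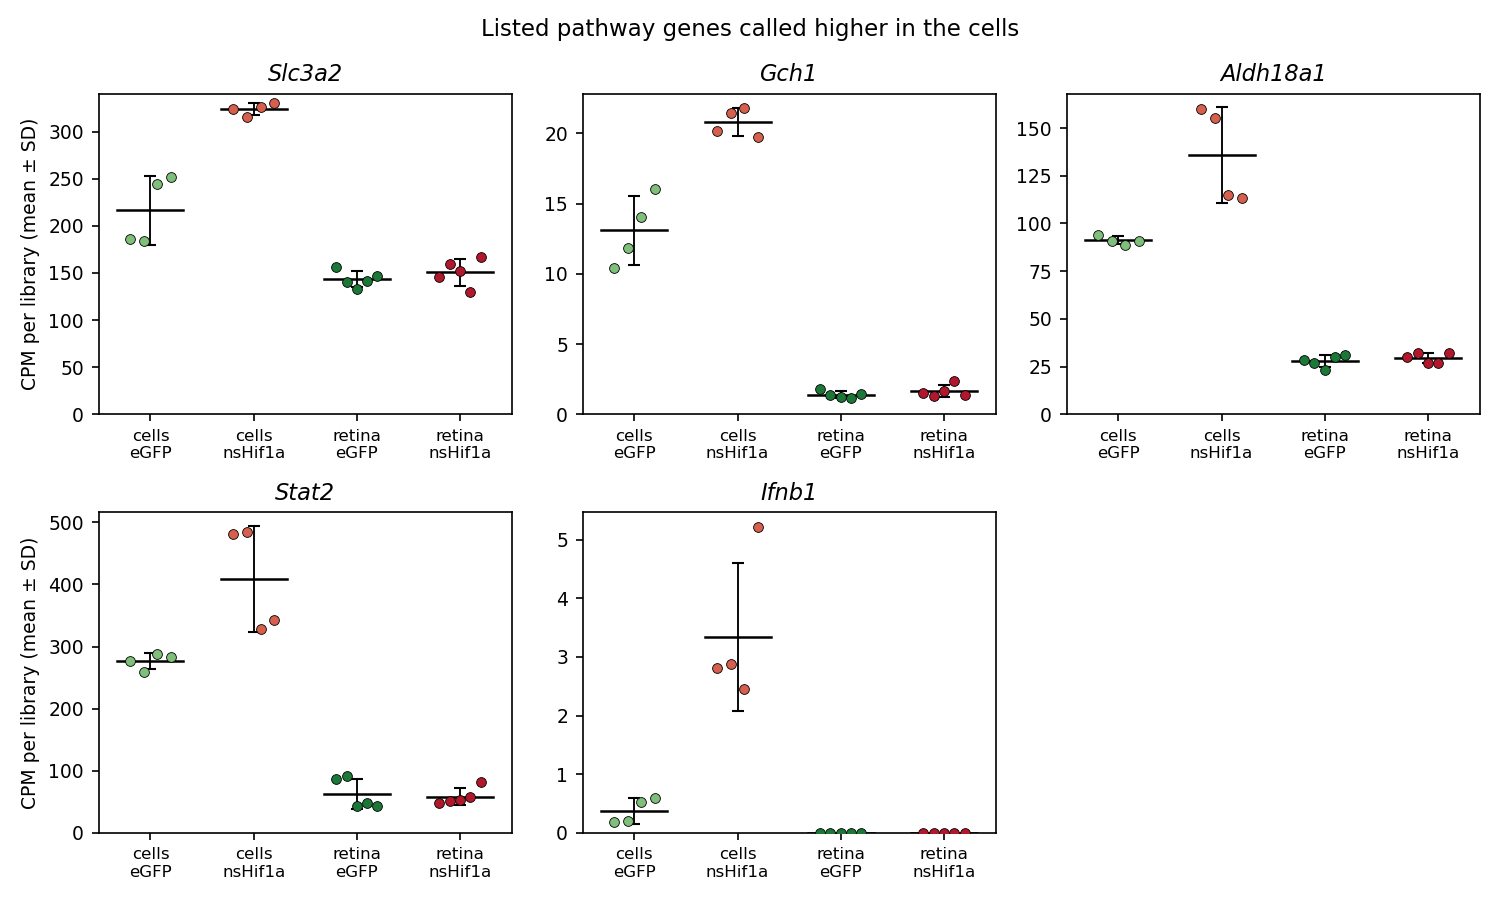
CPM per library (points) with mean and SD (line and bar) of 5 of the 6 listed genes called higher in *nsHif1a* cells. The cell groups do not overlap for any of them, and *Gch1* and *Ifnb1* are low in the retina (*Ifnb1* has 0 counts there). Library pairs split *Stat2* and *Aldh18a1* in the *nsHif1a* cells and *Slc3a2* in the eGFP cells.

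In the retina 56 of the 64 genes were tested and 0 were called by limma, edgeR or DESeq2, beside 1.99% of all genes. At an unadjusted p under 0.05 there were 10 by limma, 5 by edgeR and 6 by DESeq2, with no share over all genes given for that threshold. *Gch1* had 17 to 24 counts with eGFP and 20 to 35 with *nsHif1a*, and *Slc3a2* was at 143 ± 8.51 and 151 ± 14.4 CPM (SD, n = 5). *Dynll1*, a NOS1-binding protein (log2FC 0.32, limma adjusted p = 0.0026), *Cav1*, a NOS3 inhibitor (0.42, adjusted p = 0.027), and *Odc1*, which turns ornithine into putrescine (-0.47, adjusted p = 0.023), passed the adjusted p but not the fold threshold. These genes are named because they were called without that threshold. Without eGFP retina 2, the retina with the highest microglia marker sum, 4 genes were called (*Cav1*, *Irf8*, *Odc1* and *Slc7a7*). The share of all genes called in that setting is not given, so this number does not show whether the lists moved more than other genes. *Irf8*, a myeloid transcription factor, had 61, 419, 51, 18 and 41 counts with eGFP and 65, 157, 139, 256 and 485 with *nsHif1a*, in the same order as the marker sum within the *nsHif1a* group.

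The 5 genes whose log2 CPM was most like that of *Nos2* over the 18 libraries, among 20998 others, were *Fosb* (Pearson's r 0.88), *Nfil3* (0.87), *Dusp16* (0.86), *Snhg12* (0.86) and *Atf3* (0.85). These are descriptions over libraries that share group, depth and tissue. *Atf3*, a stress-induced transcription factor, had 147 to 243 counts in eGFP cells, 568 to 908 in *nsHif1a* cells, 40 to 90 in eGFP retinas and 101 to 383 in *nsHif1a* retinas. *Fosb*, an immediate early gene, had 25 to 55, 72 to 112, 25 to 30 and 32 to 55 counts in the same order of groups. Unlike *Nos2*, both were well above the detection limit in the control groups.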

How the data were processed

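RNA was measured in 8 libraries of 661W cells and 10 of mouse retina, and each library was placed in its group by its sample label. Stranded mRNA was sequenced by the authors from both ends. Their alignment used Rsubread on GRCm39 (primary assembly only), and featureCounts in antisense mode assigned reads to genes of the gencode M36 basic annotation. The raw counts were deposited by the authors in a table for cells and a table for retina, with no filter or scaling. Strand keeps antisense neighbours separate, but a gene with a near-identical copy can lose reads to it. Columns of other samples numbered 0.

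Here, genes with low counts were removed with filterByExpr (minimum count 10), libraries were scaled by TMM in edgeR 4.0.16, and voomWithQualityWeights, lmFit and eBayes were run in limma 3.58.1 under R 4.3.3, separately for cells and retina and over all 18 libraries for the 2 contrasts between experiments. Genes were called at a Benjamini-Hochberg adjusted p under 0.05 and an absolute log2FC above 0.5, and the difference between effects at adjusted p alone. Shares over all genes are given for calls in the main fits only. Counts at an unadjusted p or under other settings have no such background beside them. CPM values are TMM-scaled, and RPKM values use the canonical transcript length of gencode M39, which held 78168 of the 78239 genes. Ratios of summed counts have exact 95% intervals for counting error only. Upstream bases and 50-base words come from GRCm39 and the same annotation, and the NF-κB consensus was searched with its usual ambiguous bases. The procedures were tested on simulated counts.

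The members, the pathway and marker lists and the motifs were chosen with earlier results of these data known. *Nos2* was chosen by its values and was given no test. Genes named are the members, *Hif1a*, the called genes of each pathway list or else its 2 most abundant, and the 5 genes most like *Nos2*. Some listed genes that the rule would name are not reported here. Others were chosen after their values were seen. These are *Gm5424*, *Slc7a1*, the other BH4 genes, *Otc*, *Cps1*, the receptor subunits, the cytokines, the marker genes given beside a result, and the retinal genes named from other settings. No source states that the libraries of a cell group came from separate cultures, so p-values measure the spread between these libraries, which may be technical. Replicate numbers come from the labels. In the cells the deviations of same-numbered libraries from their group means correlated at 0.24, 0.23, 0.26 and 0.27. There eGFP libraries 3 and 4 correlated best with the *nsHif1a* library of their own number, and eGFP libraries 1 and 2 did not. A block on the number thus treats as pairs libraries that were not all each other's best match. The results were recomputed with DESeq2 1.42.0, with the quasi-likelihood test of edgeR, with other weights, size factors, filters and thresholds, with the replicate block, the *Xist* class, the γ-crystallin level, the library pairs and with each library left out.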

Additional observations from a re-analysis of the deposited data

Results flagged for a closer look

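A library was singled out where its gap to the nearest other library, divided by the range of its group, exceeded Dixon's 95% critical value. The rule was applied to 28 groups (7 genes in 4 groups of libraries). Of these, *Arg1* in *nsHif1a* cells had 0 counts in every library and could not be examined. Chance singles out about 1 in 20. The highest library stood apart for *Arg1* in *nsHif1a* retinas (library 4, 14.6 CPM), for *Nos2* in eGFP retinas (library 2, 0.517 CPM, from 8 counts), for *Asl* in eGFP cells (library 3, 36 CPM) and for *Arg1* in eGFP cells (library 3, 0.118 CPM, from 2 counts where the others had 0). The lowest library stood apart for *Nos2* in *nsHif1a* cells (library 4, 6.22 CPM, from 105 counts). Markers that moved with the retinal libraries are given beside those results, and their part was not tested. For *Nos2* and *Arg1* at 0 to 8 counts, a step of a few reads is enough to set a library apart.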

How the results depend on the processing

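Of 660 values recomputed under alternatives, 621 kept their direction and their side of the threshold, or stayed within 1.5 times for a count. The numbers of members called were 0 in the cells, 0 in the retina and 0 for the difference between effects under every alternative run, and 5 or 6 between control retina and control cells. In the latter 2 contrasts, 4 members passed the filter only through the retina, so their part in these counts is no test. The log2FC of *Nos2* in the cells ranged from 5.53 to 6.08.

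The pathway genes called in the cells, 6 in the main fit, numbered 3 without sample quality weights, 3 with the replicate block, 1 in libraries 3 and 4 alone and 12 in libraries 1 and 2 alone (both chosen after seeing the data), and 1 to 11 when each library was left out. Those in the retina, 0 in the main fit, numbered 1 without a filter (*Nags*), 3 without a fold threshold, 3 with the *Xist* class as a covariate (*Irf9* and *Stat2* among them), 2 in the libraries with *Xist* alone (*Irf9* and *Stat2*) and 0 to 4 when each library was left out. Among the libraries with *Xist*, *Irf9* was at 80.2 and 60.5 CPM with eGFP and at 17.2 to 55.2 with *nsHif1a*. *Stat2* was at 86.0 and 92.2 CPM with eGFP and at 48.4 to 82.0 with *nsHif1a*. Both were thus lower with *nsHif1a* there, whereas *Stat2* was higher with *nsHif1a* in the cells. Without the share of all genes called in each setting, the numbers of genes called do not show whether the lists moved more than other genes. The cause was not tested.

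The direction turned for uncalled members. In the retina *Nos1* was at 0.013 with the *Xist* class and 0.016 in the *Xist* libraries alone, and with the γ-crystallin level as a covariate *Arg2* was at -0.061, *Ass1* at 0.091 and *Asl* at -0.026. *Asl* in the cells was at 0.020 in libraries 1 and 2 alone, and the *Ass1* difference between effects at -0.060 without a filter. Leaving out each library gave -0.38 to 0.0027 for *Ass1* in the cells, -0.17 to 0.0087 for *Nos3* and -0.32 to 0.032 for *Ass1* in the retina, -1.25 to 0.53 for *Nos1* and -0.16 to 0.26 for *Ass1* between effects, and -0.050 to 0.63 for *Nos2* between controls. *Ass1* in the cells had an adjusted p (limma) between 0.00043 and 0.99 over the alternatives and stayed short of the fold threshold in all of them.

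In the retina same-numbered libraries correlated between -0.15 and 0.14, 1 of 5 eGFP libraries correlated best with its own number, and the number is not a pairing there. With the block 0 pathway genes were called in the retina, and it changed no call of a member in either experiment. The block could not be fitted to the contrast of the control groups, since the numbers are nested in the experiments. At 3 counts, 0.168 to 0.233 CPM, the depth limits every statement on *Nos1*, *Nos3*, *Arg1* and *Arg2* in the cells. Without a filter their adjusted p-values (limma) were 0.94, 0.70, 0.70 and 0.77, and *Nos2* in the retina had a log2FC of 1.89, or 0.96 in the libraries with *Xist* alone.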
